A study of Mus musculus with 5 samples.

Results

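Recently activated conventional T cells are CD4 T cells without the regulatory factor Foxp3 that carry transcripts made soon after the T cell receptor is engaged. Among CD4 T cells sorted from injured mouse kidneys, 761 cells met this description, which is 4.49% of 16946 gated conventional CD4 cells and 1.98% of 38417 retained cells. A cell was retained with at least 500 genes and under 10% of its unique molecular identifiers (UMIs, 1 per captured RNA molecule) in mitochondrial genes. The gate asked for at least 1 Cd4 UMI and none of Foxp3, C1qa (a macrophage gene) or Mki67 (a gene of dividing cells). An activated cell had a UMI of at least 2 of the 6 selection genes Tnfrsf9, Csf2, Il2, Nr4a3, Egr2 and Il2ra. The cells were therefore chosen by measured transcripts, and the levels of these 6 genes in them are a description and not a result.

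The 5 libraries came from 10-week-old mice whose kidneys had undergone ischemia-reperfusion injury on one side, in which blood flow is stopped and restored. Both groups were Il1rl1fl/fl, with loxP sites in the gene of ST2, the receptor of the alarm cytokine IL-33. The 2 control libraries carried no Cre, and the 3 knockout libraries were Il1rl1fl/fl Foxp3YFP-Cre, in which Cre is made where Foxp3 is expressed, that is in regulatory T cells (Tregs). Since the Foxp3YFP-Cre allele was in the knockouts alone, its presence and the loss of Il1rl1 in Tregs cannot be told apart. Live cells were sorted after collagenase digestion with antibodies to CD45, TCRβ, CD4, CD25 and CD127, and no uninjured kidney was analysed here. No label states whether 2 libraries may share an animal, so the p-values measure the spread between libraries, which may be technical.

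When a T cell meets its antigen, calcium and kinase signals bring NFAT, AP-1 and NF-κB factors to genes that are silent at rest. NR4A and EGR factors appear first, then cytokines such as IL-2 and GM-CSF, and then receptors such as CD25 and CD137 at the cell surface, while genes of naive recirculating cells are turned down. In injured tissue such cells are a source of cytokines and chemokines that act on macrophages, epithelium and other lymphocytes.

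The selection genes play different roles in this sequence. Nr4a3 (chr4:48045153-48086447, plus strand, GRCm38) and Egr2 (chr10:67535475-67542188, plus) encode early transcription factors. Il2 (chr3:37120523-37125959, minus) encodes the growth factor IL-2, and Csf2 (chr11:54247271-54249667, minus) encodes GM-CSF, which acts on myeloid cells. Il2ra (chr2:11642807-11693193, plus) encodes CD25, the high-affinity IL-2 receptor chain, and Tnfrsf9 (chr4:150914562-150946102, plus) the costimulatory receptor CD137. To show the regulatory DNA next to 3 genes that mark the cells, the 250 bases before their starts are printed 5′ to 3′ from RefSeq (GRCm38.p6), on the gene's strand, with matches to the NFAT core GGAAAA on either strand (TTTTCC on the other) in capitals.
Il2, chr3:37125955-37126204, minus strand: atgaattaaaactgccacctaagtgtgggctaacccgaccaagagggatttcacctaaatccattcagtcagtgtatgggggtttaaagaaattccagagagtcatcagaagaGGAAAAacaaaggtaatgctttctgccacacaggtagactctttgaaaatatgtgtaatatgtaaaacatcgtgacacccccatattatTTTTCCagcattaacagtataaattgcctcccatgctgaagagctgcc
Tnfrsf9, chr4:150919905-150920154, plus strand: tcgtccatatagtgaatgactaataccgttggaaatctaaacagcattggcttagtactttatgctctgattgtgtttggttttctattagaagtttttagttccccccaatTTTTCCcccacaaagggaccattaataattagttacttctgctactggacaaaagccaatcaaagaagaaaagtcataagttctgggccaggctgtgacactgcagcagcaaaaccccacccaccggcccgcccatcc
Csf2, chr11:54249900-54250149, minus strand: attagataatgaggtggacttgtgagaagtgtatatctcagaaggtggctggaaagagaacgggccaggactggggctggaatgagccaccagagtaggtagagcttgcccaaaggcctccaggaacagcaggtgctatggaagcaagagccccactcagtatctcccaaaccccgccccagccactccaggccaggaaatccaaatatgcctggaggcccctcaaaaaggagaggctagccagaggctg

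The Il2 window held 2 NFAT core matches, the Tnfrsf9 window 1 and the Csf2 window 0. None of the 3 printed windows held the AP-1 letters TGANTCA or the NR4A element AAGGTCA. RefSeq has a second Tnfrsf9 start 13437 bases inside the GENCODE gene, whose window overlaps an annotated exon by 81 bases and is not printed, and it held 1 AP-1 match and 0 of the others. Of 32851 windows of this length in the same table, 20.4% held GGAAAA, 6.75% TGANTCA and 4.08% AAGGTCA, so a single NFAT match is common. The Il2 window overlapped an annotated exon of the GENCODE gene model by 5 bases, and the other printed windows overlapped none. The start behind the printed Tnfrsf9 window lies 5593 bases inside the GENCODE gene, so that window is intronic in the longer model. The RefSeq start of Csf2 lies 232 bases upstream of the GENCODE start, so the printed Csf2 window does not reach the DNA next to the latter. A match is a run of letters and not a measured binding site.

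The libraries differed in depth, which sets how often a rare transcript is seen. Total UMIs per library ranged from 31104939 to 152275841, and the deposited barcodes numbered 40778, as many as the submitters state. Control 1 was the deepest library, with a median of 16872 UMIs in its activated cells against 6936.5 in control 2 and 9039.5, 6454 and 5531 in knockout 1, 2 and 3. Activated cells were deeper than the other gated cells of every library, whose medians were 12413.5, 3800, 7145, 4260 and 3808 UMIs. Between 2 and 36 barcodes were shared by any 2 libraries. Intervals given below cover counting error only.

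The activated cells carried the transcripts that define T cells. Cd3e, a T cell receptor complex subunit, was found in 82.8 to 98.0% of them across libraries, Trac, the receptor alpha constant gene, in 89.7 to 98.4%, and Trbc2, a beta constant gene, in 93.0 to 96.0%. Il2ra and Tnfrsf9 are also expressed by Tregs, so Treg genes were examined beside them. Ikzf2, which encodes Helios, was found in 44.2 to 49.8% of activated cells, in 22.0 to 38.4% of other gated cells and in 82.8 to 96.0% of Foxp3-positive cells. For Ctla4, an inhibitory receptor that Tregs hold at a high level, the ranges were 15.95 to 36.9%, 10.8 to 25.7% and 58.6 to 90%. For Nrp1 they were 43.6 to 63.4%, 25.4 to 49.1% and 53.2 to 84%, and for Itgb8 1.84 to 10.5%, 0.485 to 1.58% and 7.62 to 20.8%. In control 2 activated cells came near Foxp3-positive cells for both (51.2 against 53.2% and 10.5 against 11.3%). Itgae was found in 1.15 to 6.13%, 1.17 to 2.07% and 13.4 to 25.4%, and Gpr83 in 0 to 3.49%, 0.183 to 1.19% and 1.99 to 7.61%. The part that Tregs without a Foxp3 UMI played was not tested directly, and values without cells holding an Ikzf2 UMI are given where they bear on a count.

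Transcripts of other lineages were also present. The summed level of 13 macrophage or monocyte genes was 405 to 1250 CPM (UMIs of the genes scaled to a common total) in activated cells and 605 to 828 in other gated cells. For 8 dendritic cell genes it was 77.9 to 2293 against 175 to 898, and control 1 held both the highest macrophage and the highest dendritic value. Lyz2, a myeloid gene, was found in 4.60 to 17.5% of activated and 3.17 to 9.70% of other gated cells. Cd8a was found in none of the activated cells of 3 libraries and in 5.28% of those of control 1. A doublet caller marked 2 of 38417 cells and had not worked, so the cells with the highest doublet scores were left out as an alternative.

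Over the 761 cells together, the receptor genes were the most frequent of the 6 selection genes. Tnfrsf9 was found in 483 of the 761 cells (63.5%), Il2ra in 448 (58.9%), Nr4a3 in 292 (38.4%), Il2 in 287 (37.7%), Egr2 in 143 (18.8%) and Csf2 in 71 (9.33%). Tnfrsf9 had the smallest ratio of highest to lowest library, at 56.1, 64.0, 60.7, 71.8 and 77.0% of activated cells in control 1, control 2 and knockout 1 to 3. Il2 had the largest such ratio, at 58.7, 23.3, 36.1, 15.95 and 21.8% in the same order. Il2ra was at 43.9, 66.3, 73.0, 66.3 and 70.1%. In control 1 Il2 was thus more frequent than either receptor, and in every other library it was less frequent than both. In other gated cells the Il2 shares were 16.4, 4.94, 9.65, 2.54 and 5.51%. Control 1, the deepest library, was highest and knockout 2 lowest in both sets.

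**Figure D1:**
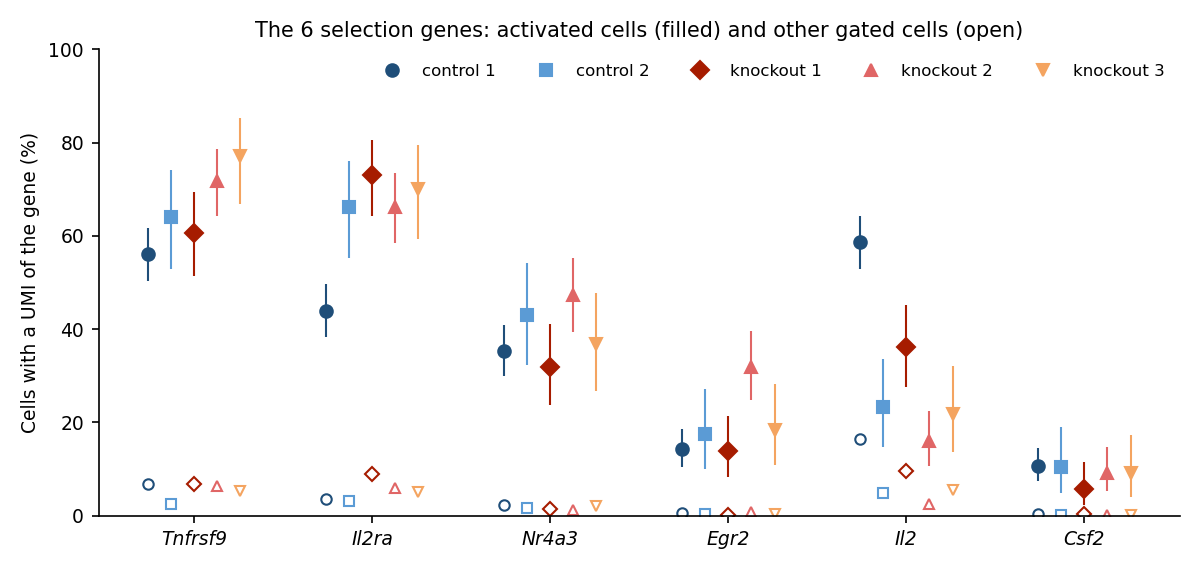
Share of cells (%, vertical axis) with a UMI of each selection gene, in activated cells (filled, with exact 95% binomial intervals) and in other gated cells (open) of the 5 libraries. Tnfrsf9 lies between 56.1 and 77.0% of activated cells, and Il2 spreads from 15.95% in knockout 2 to 58.7% in control 1.

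Most of the cells passed the rule by a narrow margin. Exactly 2 selection genes were found in 613 cells, and 148 cells had 3 or more, of which 4 had all 6. Just outside the rule, 3355 gated cells had exactly 1, and 12830 had none. The pair of Tnfrsf9 and Il2ra alone accounted for 174 of the 761 cells (22.9%), Tnfrsf9 with Il2 for 91 and Il2 with Il2ra for 68. Of the Tnfrsf9 with Il2 cells, 62 were in control 1.

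In some libraries a single cell held much of the cytokine RNA. A single cell of knockout 1 held 149 Il2 UMIs, which was 73.0% of all Il2 UMIs in its activated cells, and the top cell held 8.70 to 55.1% in the other libraries. For Csf2 the top cell held 27.3 to 49.04%. In control 2 no activated cell held more than 2 Il2 or 3 Csf2 UMIs. The 2 receptors had 3.70 to 20.8% of Tnfrsf9 and 5.52 to 25.3% of Il2ra UMIs in the top cell.

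Some of the selection genes occurred together far more often than others. Every cell was thinned to 2000 UMIs and then gated, so that cells of unequal depth could be compared. Nr4a3 and Egr2 were found together in 21 cells where independence within libraries gives 1.18, a ratio of 17.8. The count was above that number in all 5 libraries. Tnfrsf9 and Il2ra were together in 62 cells against 20.4, a ratio of 3.04. Il2 was below that number with both receptors, with 7 cells holding Il2 and Il2ra against 13.8 and 10 holding Il2 and Tnfrsf9 against 12.8. It was above with Egr2 (5 against 1.97, in all 5 libraries) and Csf2 (3 against 0.942), and near it with Nr4a3 (6 against 5.17). These counts are small and are given as a description.

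Each gene was also left out of the rule in turn, at full depth. Among cells with at least 2 of the other 5 selection genes, Egr2 was found in 5.11, 6.58, 6.25, 21.3 and 12.3% (control 1, 2, knockout 1, 2, 3), against 1.35, 0.508, 0.751, 1.21 and 0.570% of the remaining gated cells. Egr2 was higher in the first set in every library, on 5 of 76 cells in control 2 and 30 of 141 in knockout 2, for example. Depth was not matched between the 2 sets, and deeper cells have more transcripts detected. For Il2 the shares were 19.4, 7.04, 10.3, 6.16 and 6.85% against 19.3, 5.30, 11.3, 2.92 and 6.19%. The 2 Il2 shares lay close together in control 1, knockout 1 and knockout 3. The first was higher in control 2 and knockout 2, on 5 of 71 and 9 of 146 cells.

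Cells that should lack these transcripts gave the background from free RNA, with cells grouped at full depth and then thinned to the same 2000 UMIs. Il2 was found in 421 of 15599 gated cells (2.70%) and in 7 of 1064 Foxp3-positive cells (0.658%). It was found in 0 of 114 C1qa-positive cells without T cell transcripts (exact 95% upper limit 3.18%). At this number of cells that is not distinguishable from the share in gated cells. Il2ra was found in 3 of those 114 cells (2.63%, exact 95% interval 0.546 to 7.50) and in 1 of 59 B cells (1.695%), which is not distinguishable from its 3.36% in gated cells at this number of cells. Tnfrsf9 was found in 1 of the 114 (0.877%), 0 of the 59 B cells (exact 95% upper limit 6.06%) and 3.24% of gated cells. Foxp3-positive cells, which express both receptors, had Tnfrsf9 in 15.04% and Il2ra in 24.9%. Csf2 was found in 0 of those 1064 Foxp3-positive cells (exact 95% upper limit 0.346%) and in 0.173% of gated cells.

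The share of activated cells among gated cells was compared between control and knockout mice. At full depth, control 1 and 2 had 6.86 and 2.14% and knockout 1 to 3 had 6.17, 3.601 and 4.32%, and the groups overlapped (4.501 ± 3.34%, SD, n = 2, against 4.70 ± 1.33%, n = 3; two-sided exact permutation p = 1). Control 1 and knockout 1, the 2 deepest libraries, had the highest shares. With each cell thinned to 2000 UMIs they were 0.669% (23 of 3439; exact 95% interval 0.424 to 1.00) and 0.878% (25 of 2849; 0.569 to 1.29) in the controls. In the knockouts they were 1.43% (22 of 1534; 0.901 to 2.16), 1.35% (50 of 3693; 1.01 to 1.78) and 1.87% (30 of 1606; 1.26 to 2.66). All 3 knockout libraries lay above both controls. In these thinned shares the gate as well as the rule was applied to the thinned counts.

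The thinned mean was 0.773 ± 0.148% (SD, n = 2) in controls and 1.55 ± 0.277% (n = 3) in knockouts, a ratio of 2.01, with a two-sided exact permutation p of 0.2, the smallest that 10 arrangements allow, and 0.28 after Benjamini-Hochberg adjustment over 7 shares. The design thus cannot reach 0.05 by this test. Over 20 thinning draws the difference ranged from 0.527 to 1.19 percentage points, and the groups did not overlap in 19. Limma on logit shares gave a difference of 1.01 on the log2 scale with an adjusted p of 0.0229, which was lost when either control, knockout 1 or knockout 3 was left out (adjusted p of 0.0677 to 0.137). Thinned to 1000 UMIs the groups overlapped (0.305 against 0.512%, exact permutation p = 0.6). Without cells holding an Ikzf2 UMI the shares were 0.502 and 1.46%. With the gate applied at full depth before thinning they were 0.508 and 1.37%, and the groups did not overlap in 18 of 20 draws.

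**Figure D2:**
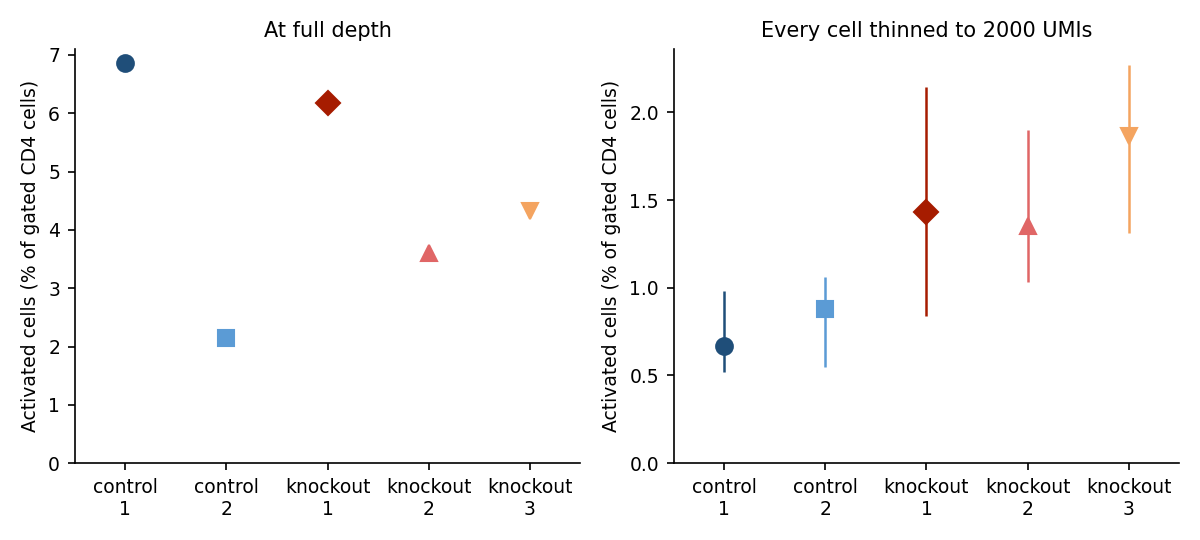
Activated cells as a percentage of gated CD4 cells in each library (vertical axis), at full depth on the left and with every cell thinned to 2000 UMIs on the right, where lines span the lowest and highest of 20 draws. At full depth the groups overlap, and after thinning the knockouts (1.35 to 1.87%) lie above the controls (0.669 and 0.878%).

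The 2 receptors were found more often in every knockout library, and Il2 was not. After thinning, Il2ra was found in 2.77% of gated cells in controls and 5.31% in knockouts (ratio 1.92), Tnfrsf9 in 2.53 and 4.63% (ratio 1.83), Egr2 in 0.397 and 0.737% and Nr4a3 in 1.32 and 1.56%. For each of these 4 genes every knockout library lay above both controls, with an exact permutation p of 0.2 and 0.28 after adjustment. Il2 was found in 3.57 against 2.53% (exact permutation p = 0.6) and Csf2 in 0.198 against 0.276% (p = 0.8), and in both the groups overlapped. A rule without Il2 gave 0.563 and 1.36%. With the gate applied at full depth before thinning, the groups overlapped for Nr4a3 (1.03 and 1.34 against 1.26, 1.57 and 1.81%). They also overlapped for Egr2 (0.321 and 0.232 against 0.315, 0.982 and 0.604%), and not for the 2 receptors.

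Genes outside the rule were then described in the activated cells against the other gated cells of the same library, as log2 ratios of summed CPM. No test was made, because the cells were chosen on transcripts of the same cells. Of 8413 measured genes (mean of at least 10 CPM in the higher group), 44 were at least 2-fold higher in all 5 libraries (0.523%) and 8 at least 2-fold lower (0.0951%). Any difference in the same direction in all 5 libraries was found for 1535 genes on the higher side (18.2%) and 957 on the lower (11.4%), and the median log2 ratio was 0.025. T cell identity genes lay at that median, with 0.021 over 11 genes.

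Early transcription factors formed a clear group. Of 22 measured, 5 were at least 2-fold higher in all libraries (Nr4a1, Nr4a2, Egr1, Egr3 and Bhlhe40), 17 were higher in all and none was lower in all, with a median log2 ratio of 1.00. Egr3, a paralogue of Egr2 that restrains T cell responses, was at 25.1, 63.1, 22.6, 98.2 and 110.8 CPM in activated cells of control 1, 2 and knockout 1, 2, 3, against 1.21, 2.58, 2.62, 2.87 and 5.64 in other gated cells. Its log2 ratio was 4.30 ± 0.73 (mean ± SD over libraries, as for all ratios that follow, n = 5), and it was found in 72 activated cells. Every activated value of Egr3 lay above every other value.

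Nr4a1, the orphan nuclear receptor NUR77 used as a reporter of receptor signalling, was at 26.1, 92.4, 35.1, 87.3 and 72.7 CPM against 5.16, 5.85, 2.84, 3.98 and 5.39 (log2 ratio 3.63 ± 0.79). Egr1, an immediate early zinc finger factor, was at 33.55, 83.2, 59.3, 73.9 and 91.8 against 8.62, 11.9, 9.57, 13.7 and 17.4 (2.45 ± 0.32). Neither gene's 2 ranges overlapped. Bhlhe40, a factor tied to cytokine production in T cells, was found in 425 cells with a ratio of 1.67 ± 0.27, and Rel, an NF-κB subunit, in 528 cells with 1.33 ± 0.50. Irf4, which scales with receptor signal strength, had a ratio of 1.66 ± 0.78, and Myc, which drives growth, 1.10 ± 0.78. These last 3 factors were not 2-fold higher in every library.

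Secreted factors showed the largest ratios. Of 17 measured cytokines and chemokines, 5 were at least 2-fold higher in all libraries (Ccl1, Ccl4, Xcl1, Il4 and Il13), 13 were higher in all and none lower in all, and the median ratio was 2.96. Ccl1, the ligand of CCR8, was at 381, 363, 259.6, 1556 and 1535 CPM in activated cells and 0.965, 2.75, 5.95, 11.5 and 18.7 in other gated cells (6.90 ± 1.16). It was found in only 84 of the 761 cells, and 1 cell held 16.7 to 73.6% of its UMIs in a library. Knockout 2 and 3 had the highest Ccl1 levels in both cell sets.

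Xcl1, the chemokine that draws cross-presenting dendritic cells, was more evenly spread. It was found in 191 cells, at 178, 313, 77.2, 207 and 308 CPM against 29.1, 27.5, 29.98, 12.6 and 22.8 (3.06 ± 1.08). Ifng, the macrophage-activating cytokine of Th1 cells, was found in 216 cells and was at 40.2, 359, 66.3, 745.5 and 149 CPM against 23.7, 28.7, 28.0, 68.4 and 31.5. In control 1 the Ifng level was less than 2-fold higher, so the gene is not among the 44. Tnf, found in 238 cells, was at 46.6, 93.9, 46.0, 184 and 86.6 CPM against 25.5, 23.0, 27.8, 32.2 and 28.8.

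Other cytokines rested on a handful of cells. Il21 was found in 26 activated cells, Il4 in 23, Il13 in 7, Il10 in 6 and Il17a in 6. In knockout 3, 1 cell held 98.1% of the Il4 UMIs of its activated cells. Il13 met the 2-fold rule although its activated cells had 0 UMIs in knockout 2, because the other gated cells there were at 0.101 CPM and 0.5 counts were added to each sum. With the added counts scaled to the size of each sum, 40 genes were higher and 9 lower.

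Surface molecules of activation were mostly higher. Of 16 measured, 2 passed the 2-fold rule, 12 were higher in all libraries and none lower in all (median 0.86). Tnfrsf4, the costimulatory receptor OX40, was at 130, 266, 252, 405.5 and 518 CPM against 43.8, 63.1, 76.4, 97.3 and 96.8 (1.97 ± 0.33), with no overlap between the 2 sets. Cd83, an activation antigen, had a ratio of 3.02 ± 0.56, and Cd70, the ligand of CD27, 3.90 ± 0.98 with UMIs in 70 cells. Cd69, the early activation and retention antigen, was only modestly higher (0.55 ± 0.40). Cd40lg, the B cell helper ligand, was not higher, at 180, 145, 112, 201.5 and 135 CPM against 175, 156.5, 160.3, 162 and 168 (-0.11 ± 0.32).

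Feedback inhibitors were mixed. Of 29 measured, 2 passed the 2-fold rule, 15 were higher in all libraries and 2 lower in all (median 0.53). Rgs16, a brake on G protein and chemokine receptor signalling, had a ratio of 4.08 ± 0.46 and was found in 83 cells. Dusp4, a phosphatase of MAP kinases, had 2.21 ± 0.57. Ctla4 was at 72.7, 145, 203, 47.9 and 86.6 CPM against 58.2, 40.65, 85.8, 42.6 and 73.7 (0.77 ± 0.74), and Socs3, an inhibitor of cytokine receptors, was lower (-0.89 ± 0.32).

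Growth genes were higher by small and even amounts. Of 24 measured, 18 were higher in all libraries, none was lower in all, and 1, Odc1, passed the 2-fold rule (median 0.55). Odc1, the rate-limiting enzyme of polyamine synthesis, was at 331, 373, 529, 480.2 and 622 CPM against 138.5, 159.8, 216, 209 and 230.4, and its ratio of 1.28 ± 0.09 varied little. Of 13 genes of the IL-2 receptor and STAT5 pathway, 7 were higher in all libraries and 2 lower (median 0.24). Cish, a STAT5 target that inhibits cytokine signalling, had a ratio of 0.69 ± 0.13.

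Genes of naive and resting cells were lower. Of 18 measured, 15 were lower in all libraries, 3 of them at least 2-fold, and none was higher in all (median -0.56). Klf2, which maintains quiescence and tissue exit, was at 97.1, 131, 71.7, 51.2 and 81.4 CPM in activated cells against 246, 274, 193, 157.5 and 237 (-1.39 ± 0.21), with no overlap. Ccr7, the lymph node homing receptor, was at 28.5, 40.0, 27.3, 9.24 and 20.8 against 86.1, 114, 62.95, 29.1 and 82.4 (-1.56 ± 0.27). S1pr1, the receptor for exit into lymph, had -1.14 ± 0.14, and Tcf7, the factor TCF-1 of naive and memory cells, -0.75 ± 0.11. Among the named lower genes, Igfbp4, an insulin-like growth factor binding protein, had the largest difference (-2.21 ± 0.44).

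**Figure D3:**
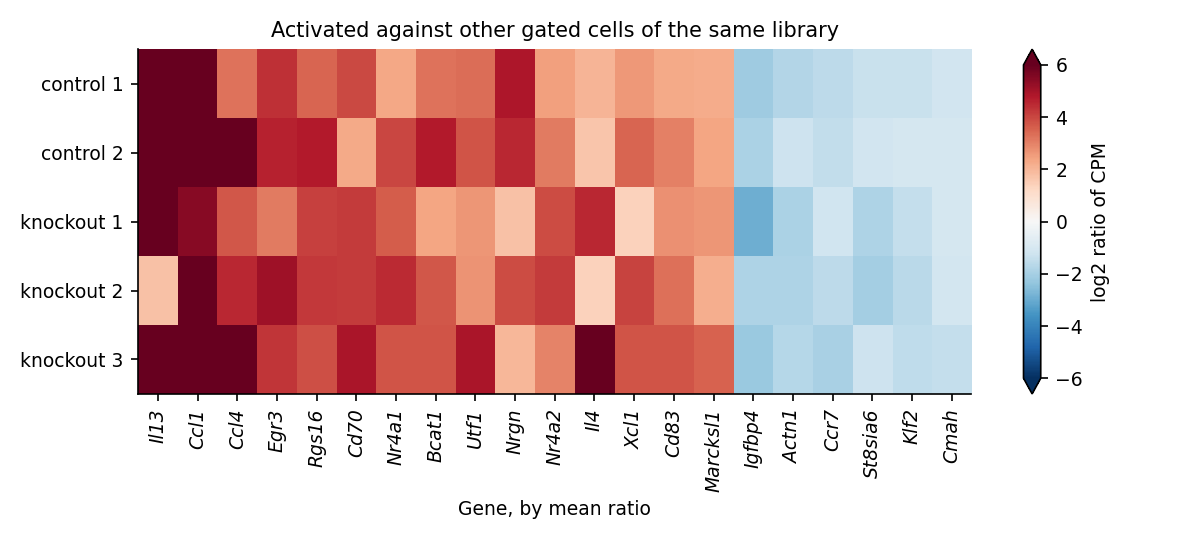
Log2 ratio of CPM in activated against other gated cells (colour, capped at 6 in either direction) for the 15 named genes with the largest ratios and the 6 named lower genes (columns), in each library (rows). Ccl1 and Egr3 are high in every row, Il13 and Il4 differ widely between rows, and the 6 lower genes are even.

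Helper gene lists leaned higher by unequal amounts. Of 12 Th1 genes 5 were higher in all libraries (median 0.14), and Tbx21, the Th1 master factor, was nearly level (0.14 ± 0.09). Of 9 Th17 genes 8 were higher in all (median 1.08) and of 8 Th2 genes 6 (median 1.38), among them Gata3, the Th2 factor, at 0.43 ± 0.22. Of 7 follicular helper genes 3 were higher in all and 1 lower (median 0.70). Of 10 Treg genes 8 were higher in all (median 0.94), including Ikzf2 at 214, 385, 411, 409 and 329 CPM against 186, 135, 178, 230.2 and 233.5. Of 12 interferon response genes none was higher in all, and 1 was lower (median -0.15).

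Genes that respond to tissue dissociation were considered because digestion of the kidney can switch on some of the same factors. Of 24 measured, 14 were higher in all libraries and 2 were lower in all, where all genes give 18.2 and 11.4%. The list thus leaned higher (median 0.40), and 1 gene, Gadd45b, passed the 2-fold rule. Fos, an AP-1 subunit and a leading dissociation gene, had a ratio of -0.17 ± 0.73, and the heat shock gene Hspa1a -0.42 ± 0.66. Neither had one direction across the 5 libraries, unlike the 14 genes above. The part that digestion played was not tested.

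Mean levels followed the number of selection genes in a cell. In cells with 0, 1, 2 and 3 or more of them, Egr3 averaged 1.90, 6.88, 40.3 and 124 CPM over the libraries, and Nr4a1 4.00, 6.63, 27.6 and 166. Ccl1 averaged 3.19, 24.3, 223 and 2548 CPM, and Tnfrsf4 63.6, 113, 232 and 550.5. Ifng averaged 32.9, 47.1, 87.3 and 717 ± 815 CPM (SD, n = 5), and in control 1 it was lower with 3 or more (28.3) than with 2 (42.65). Klf2 went the other way, at 257, 124, 101 and 40.65 CPM, as did Ccr7, at 90.5, 32.3, 27.4 and 17.3. Deeper cells have more selection genes detected, and median UMIs went from 3635.5 to 7012 over these 4 classes in control 2, for example.

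**Figure D4:**
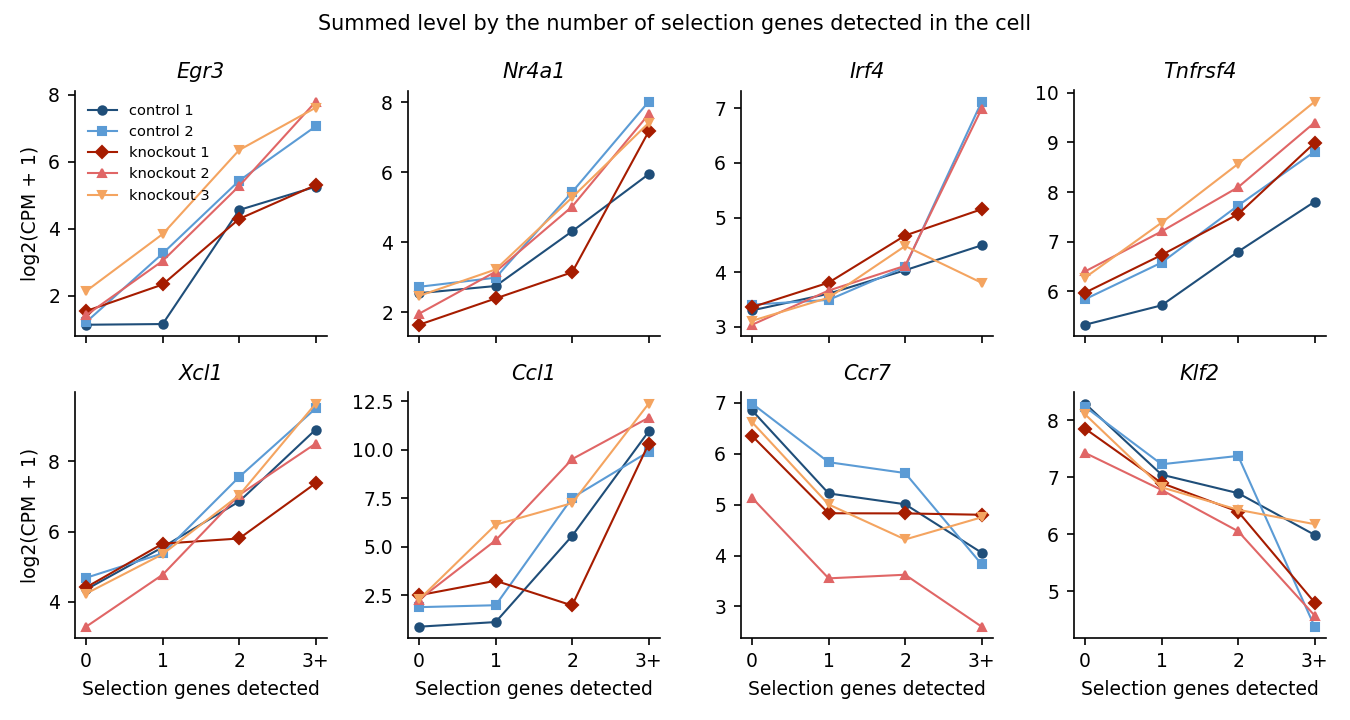
Summed level (log2 of CPM plus 1, vertical axes) of 8 genes in gated cells with 0, 1, 2 or at least 3 selection genes (horizontal axes), with 1 line per library. Tnfrsf4 climbs at every step in every library, Irf4 climbs steeply in control 2 and knockout 2 only and drops in knockout 3 at the last step, and Ccr7 and Klf2 are highest in cells with 0.

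Activated cells outside the gate were set beside those inside. At least 2 selection genes were also found in 275 Foxp3-positive and 688 Mki67-positive CD4 cells. Ccl1 averaged 819 ± 665 CPM (SD over 5 libraries) in the activated conventional cells, 478.5 ± 244 in the Mki67-positive and 26.2 ± 53.5 in the Foxp3-positive ones, and Ifng 272 ± 293, 145 ± 121.5 and 20.1 ± 14.97. The Mki67-positive cells were not lower throughout, since Ccl1 was higher in them in control 2 (612.5 against 363.5 CPM) and knockout 1 (654 against 259.7), and Ifng in control 1 and knockout 1. OX40 transcripts were not lower in the Foxp3-positive cells, where Tnfrsf4 averaged 562 CPM against 314. These sets were chosen by transcripts too, so the values are a description.

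Activated cells were also split by a UMI of Il2 or Csf2. Cells with neither had to carry 2 of the other 4 selection genes to be chosen, which include the receptors that Tregs express, so the rule itself bears on the values that follow. In the 328 cells with Il2 or Csf2, Tnf averaged 180 ± 167 CPM (SD, n = 5), against 59.0 ± 21.5 in the 433 cells with neither, but was lower in the first set in control 1 (38.4 against 61.7) and knockout 1 (42.5 against 48.4). Cd83 averaged 27.7 ± 13.8 against 69.7 ± 27.9, Ikzf2 272 ± 67.2 against 402 ± 96.0 and Itgb8, an integrin of Tregs that activates TGF-β, 1.32 against 26.1. Cd83 was lower in the first set in every library, and Ikzf2 in all but knockout 3 (351 against 319.5). Ccl1 averaged 1048 ± 1168 and 707 ± 518 CPM, and Egr3 75.7 and 66.4, with wide overlap.

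The targeted gene was examined first in the comparison of genotypes. Il1rl1 was at 80.7 and 54.5 CPM in Foxp3-positive cells of the controls and at 168, 72.5 and 57.8 in those of the knockouts, and the groups overlapped. The sources used here do not say which exons were floxed, and a 3′ tag outside them checks nothing. In activated cells, which have no Foxp3 UMI, Il1rl1 was found in 7.59 and 5.81% of control cells and in 27.0, 34.4 and 17.2% of knockout cells. The summed level was 20.3 and 9.47 CPM against 59.6, 102 and 76.0 (scaled by TMM, edgeR's normalization, as in all genotype values that follow). All 3 knockouts lay above both controls, with a log2 fold of 2.17 (SE 0.33) and an edgeR adjusted p of 0.400. The same order was seen in the other gated cells (8.10 and 8.20 against 66.7, 34.0 and 24.2 CPM, unscaled) and in Mki67-positive cells (7.81 and 8.69 against 48.7, 35.8 and 17.6). The genotype effect on Il1rl1 was 0.12 log2 units smaller in activated than in other gated cells (difference -0.12, SE 0.42, edgeR adjusted p = 1).

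No gene passed the threshold in activated cells between the genotypes. With edgeR's quasi-likelihood test on UMIs summed per library, 0 of 8931 genes had an adjusted p under 0.05 (0%), and 442 had an unadjusted p under 0.05. DESeq2 called 2, Il1rl1 and Lilr4b, both higher in knockouts, and without the filter on low counts edgeR called 198. All knockouts lay above both controls for 829 genes (9.28%) and below both for 856 (9.58%). The activated cells of control 2 and knockout 3 numbered only 86 and 87, against 303 in control 1.

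Among genes whose groups did not overlap, those with the smallest p in each direction are named with these limits. Lilr4b, an inhibitory immunoglobulin-like receptor, was at 40.9 and 31.6 CPM in controls and 101.5, 113.5 and 91.55 in knockouts (log2 fold 1.44, SE 0.20, edgeR adjusted p = 0.400). Cish was at 92.6 and 99.4 against 208, 157 and 228 CPM (1.04, SE 0.20), and Serpinb9, the granzyme B inhibitor, at 31.3 and 42.6 against 66.6, 83.6 and 102 (1.24). Ddit4, an inhibitor of mTORC1, Mapkapk3, a stress kinase, and Runx2, a Runt factor, had log2 folds of 1.03, 0.89 and 0.84. Their adjusted p was 0.755 to 0.875.

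On the lower side, Dapl1 was at 29.4 and 17.4 CPM in controls and 6.97, 3.41 and 1.73 in knockouts (log2 fold -2.46, SE 0.48, edgeR adjusted p = 0.755). Fos was at 29.8 and 29.99 against 13.2, 10.2 and 10.4 (-1.38, adjusted p = 0.875). Cpq, a secreted peptidase, and the genes Zfp710, Dock4 and Scml4 had log2 folds of -1.15, -1.44, -2.12 and -0.98. For each of these 6 the groups did not overlap, which was a condition for naming them, and 9.58% of all genes lay below both controls in the same way.

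**Figure D5:**
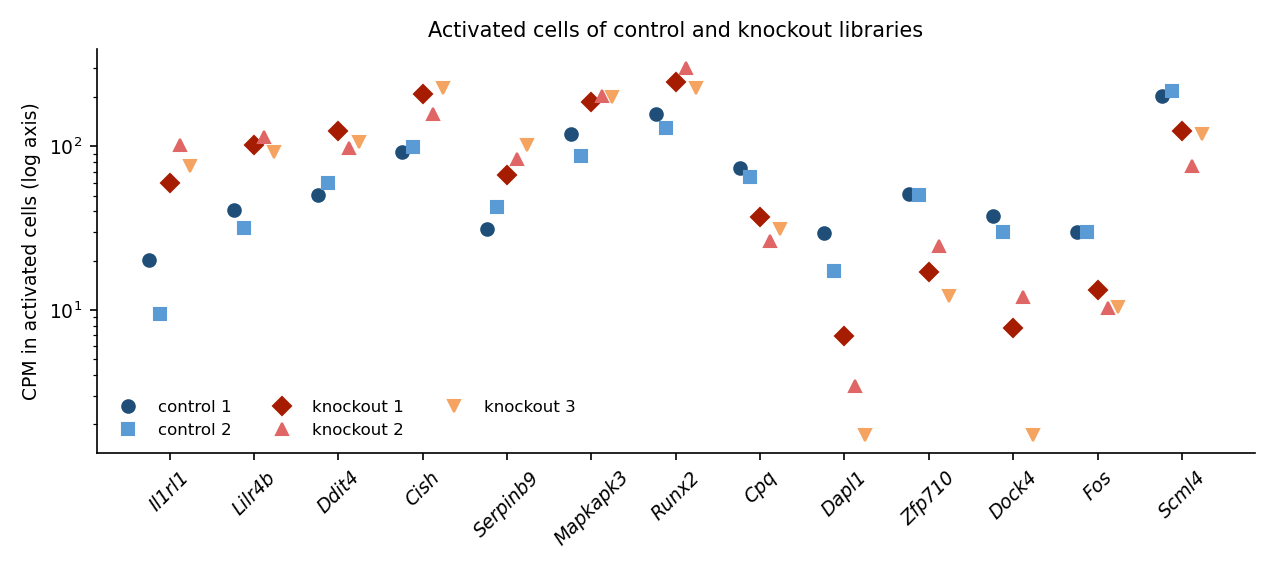
CPM (log axis, TMM-scaled) of 13 genes in the activated cells of each library. In every column the 3 knockouts lie on one side of the 2 controls, which for all but Il1rl1 was a condition of the choice. No gene passed the edgeR threshold.

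The selection genes themselves were also at different levels in the activated cells. Tnfrsf9 was at 62.5 and 121.5 CPM in controls and 123, 230.3 and 287 in knockouts, Il2ra at 53.3 and 219 against 235.5, 251 and 275, and Il2 at 65.8 and 36.3 against 158, 75.9 and 154. Knockouts lay above both controls for these 3 genes and not for Csf2, Nr4a3 or Egr2. Single cells weighed on this order. In knockout 1, just above control 2 for both receptors, the top cell held 20.8% of Tnfrsf9 and 25.3% of Il2ra UMIs. For Il2 the top cell held 73.0, 46.1 and 55.1% in knockout 1, 2 and 3. The order without these cells was not tested. The cells were chosen on these genes, so no test is given.

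By group, genes of naive cells stood on the lower side in knockouts. Of 18 tested, 17 had a negative fold and 11 lay below both controls in every knockout (61.1%, against 9.58% of all genes), with a median log2 fold of -0.48. Klf2 was at 99.2 and 134 CPM against 71.3, 52.0 and 81.2 (-0.76, SE 0.23, edgeR adjusted p = 0.923), and Tcf7 at 297 and 271 against 199.8, 163 and 207 (-0.59, SE 0.16, 0.923). None of the 18 passed. In the other gated cells 15 of the 18 lay below (83.3%, against 6.97% of all genes), so the activated cells shared this with the cells around them. When the cells were chosen after thinning, 0 of the 18 lay below both controls (0%, against 9.36% of all genes there), and 15 had a lower mean. That set held only 19 and 20 cells in control 1 and 2 and 18, 57 and 32 in knockout 1 to 3. With so few cells, the count of 0 does not show that the difference was gone. The same small set is meant wherever cells chosen after thinning are named.

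Activation genes were counted in the same way. Of 22 early factors 20 had a positive fold (median 0.36) and 3 lay above both controls in all knockouts (13.6%, against 9.28% of all genes), Nfkb2, Bhlhe40 and Prdm1. In cells chosen after thinning 14 of the 22 had a higher mean. In the other gated cells 9 of the 22 lay above both controls and 1 below. These are 40.91 and 4.545%, where all genes in the other gated cells give 15.01 and 6.972%. Prdm1, which encodes BLIMP-1, was at 17.7 and 17.4 CPM against 46.5, 34.98 and 27.6 (log2 fold 1.08, SE 0.29, edgeR adjusted p = 0.923). Of 25 growth genes 23 were positive and 3 lay above (Slc7a5, Hk2 and Odc1), which is 12% against the same 9.28%, and 18 had a higher mean in cells chosen after thinning. Of 30 feedback inhibitors 7 lay above and 2 below, where all genes give 9.28 and 9.58%, among the first Cish, Dusp5 and Havcr2, which encodes TIM-3. In cells chosen after thinning 6 lay above (20%) and 2 below (6.67%), where all genes give 9.92 and 9.36%. Of the 30, 14 had a higher and 16 a lower mean in those cells. None of these genes passed, and of 17 cytokines and chemokines none lay outside the control range in all knockouts.

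No Th2 or dissociation gene passed the edgeR test. Of 8 Th2 genes tested, 3 lay above both controls (Pparg, Il1rl1 and Ccr4; 37.5%, against 9.28% of all genes), and the median log2 fold was 1.195. The median log2 difference was 0.58 in cells chosen after thinning and 0.29 in cells with at least 3 selection genes, where 4 genes were higher and 4 lower. Pparg, a nuclear receptor of tissue Th2 cells, was at 13.5 and 7.89 CPM against 30.98, 16.2 and 69.1 (1.58, SE 0.55, edgeR adjusted p = 0.931). Of 25 dissociation genes 6 lay below both controls and 1 above, where all genes give 9.58 and 9.28%, and 19 had a negative fold. In cells chosen after thinning 3 lay below and 2 above, where all genes give 9.36 and 9.92%. Hspa1a was at 25.6 and 23.7 CPM against 10.1, 2.56 and 3.46 (-2.10, adjusted p = 0.896), and Fos is given above. Whether handling differed between the groups was not tested.

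The genotype effect was compared between activated and other gated cells of the same libraries. With edgeR and the library as a term, 5 of 12209 genes differed at an adjusted p under 0.05 (0.041%). These were Il2, Irf8, Klrk1 and the immunoglobulin genes Igkc and Igha. Il2 is counted among the 5, but the activated cells were chosen on it, so its call is not read as a result. Irf8, an interferon regulatory factor induced by T cell stimulation, was at 34.0 and 75.3 CPM in activated cells of controls and 72.96, 175 and 143.6 in knockouts, and in other gated cells at 24.99 and 24.7 against 20.5, 16.4 and 14.1. The knockout effect was 2.01 log2 units larger in activated cells (SE 0.36, edgeR adjusted p = 0.0463). The call was lost under 6 alternatives, among them DESeq2 and leaving out control 1 (adjusted p = 0.428) or knockout 2 (0.112). Irf8 is also expressed by B cells (373 CPM) and by C1qa-positive cells (237 CPM). With cells holding a UMI of any of 9 B cell, myeloid, CD8, NK or tubule genes left out, Irf8 was still called. No dendritic cell gene is among these 9, and the MHC class II gene H2-Eb1 and the monocyte gene Ly6c2 were called there too. Whether RNA of other cells bears on the Irf8 difference was not tested.

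Klrk1, which encodes the activating receptor NKG2D, was at 60.6 and 59.9 CPM in activated cells of controls and 50.9, 23.5 and 18.4 in knockouts. In other gated cells it was at 27.1 and 23.8 against 53.4, 28.7 and 23.9. The knockout effect was lower by 1.41 log2 units in activated cells (edgeR, difference -1.41, SE 0.23, adjusted p = 0.0185), and the activated knockouts lay below both activated controls. The call was lost with cells chosen after thinning, with cells holding an Ikzf2 UMI left out, and without control 1 or knockout 1 (adjusted p of 0.0541 to 0.0654), and the difference was -0.084 on thinned counts. Igkc reached 1400 CPM and Igha 427.5 in other gated cells of knockout 1, beside 186 and 33.4 in control 1. Both are transcripts of B-lineage cells, and both differences turned to positive values when cells with other-lineage transcripts were left out.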

How the data were processed

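Single-cell 3′ RNA was measured in 5 libraries of sorted kidney CD4 T cells, 2 control and 3 knockout as the labels group them. The deposited matrices hold raw UMI counts per gene and barcode, which per the file headers the authors computed by Cell Ranger 8.0.0. Named in the submitters' processing notes are mm10, Seurat 5.1.0 and Cell Ranger 8.0. Deposited barcode and feature files are other, non-numeric content. All 31053 genes were read. The members, gene lists and comparisons were chosen with earlier results of these data known.

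Cells were filtered and chosen as the report states. Counts were summed per library and tested with edgeR 4.0.16 (TMM, filterByExpr, quasi-likelihood, Benjamini-Hochberg, threshold 0.05). The difference between cell sets used the library as a term. Shares were compared by exact permutation after thinning to 2000 UMIs, which left out 62, 569, 69, 455 and 192 shallower gated cells (control 1, 2, knockout 1, 2, 3). The gate was then applied to the thinned counts, which left 3439, 2849, 1534, 3693 and 1606 gated cells. A cell that lost its Cd4 UMIs thus left the gate, and one that lost its Foxp3, C1qa or Mki67 UMIs could enter it. Ratios within libraries had 0.5 counts added. Named were the genes with the largest ratios or, without overlap between groups, the smallest p, plus fixed genes and list members. Unnamed gene models, receptor segments, sex-linked, ribosomal and mitochondrial genes and non-T markers were left out. Igkc, Igha, Rel, Gata3 and Pparg were named after their values were seen. Alternatives were DESeq2 1.42.0, limma 3.58.1, RLE factors, other filters, depths and cell sets, a replicate block and leaving out each library. Scores for doublets came from Scrublet in scanpy 1.11.5. Other tools were matplotlib 3.10.9, pandas 2.3.3, scipy 1.17.1, numpy 2.4.6, Python 3.11.15 and R 4.3.3. The tests were tested on simulated data.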

Additional observations from a re-analysis of the deposited data

Results flagged for a closer look

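The effect of the knockout differed between activated and other gated cells of the same libraries by a test of the difference itself for 4 genes outside the selection. The log2 difference (activated minus other) was 2.01 for Irf8 and -1.41 for Klrk1, whose levels in each library are given in the report. It was -2.17 for Igkc and -3.48 for Igha, antibody genes whose level in other gated cells was highest in knockout 1. The B or plasma cell list summed to 467 CPM in the other gated cells of that library, and to 145 to 317 in those of the other libraries. No cause was tested for any of the 4.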

How the results depend on the processing

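No difference in the share of activated cells changed direction, and by the exact test none could pass, since its smallest p is 0.2. Against 0.779 percentage points as reported, the difference was 0.621 to 0.883 with 1 library left out, 0.198 without thinning, and on the logit scale of limma 1.01 (adjusted p = 0.0229). The labels share replicate numbers but nothing says that they pair samples. Deviations from the group mean correlated at 0.319 for control 1 and knockout 1, -0.106 for control 2 and knockout 2, and 0.438 for control 2 and knockout 3. With 2 controls these deviations mirror each other, so a knockout correlates with both at the same size and opposite sign. These values therefore cannot tell whether samples are paired. The replicate block gave 0.866 for the share (limma, adjusted p = 0.0481) and 0 genes between the genotypes. No control bears replicate number 3, so knockout 3 adds nothing to the block's genotype difference. The fit without knockout 3 gave the same 0.866 (limma, adjusted p = 0.0813).

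Genes called between the genotypes in activated cells numbered 2 with DESeq2, 198 without the filter on low counts, 1 (Il2, a selection gene) in cells with Il2 or Csf2, and 0 to 7 with 1 library left out, where 7 came without control 2 and 1 (Ccl1) without knockout 1. Genes with a different genotype effect in activated cells, 5 as reported, numbered 3 with DESeq2, 3 with RLE factors, 24 without the filter, 1 (Ccl1) on thinned counts, 16 with at least 3 selection genes, 9 without cells holding other-lineage transcripts, 10 without cells holding an Ikzf2 UMI, and 18 with cells chosen after thinning, an alternative added after the data were seen. With 1 library left out they numbered 3 to 64, with 64 without control 2, 14 without control 1, 12 without knockout 2 and 3 without knockout 1. Igkc turned to 0.447 on thinned counts and 1.15 without other-lineage cells. Igha turned to 0.562 with DESeq2, 2.21 without other-lineage cells, 2.36 without Ikzf2 cells and 4.13 without knockout 1, and with 1 library left out it ranged from -3.75 to 4.13. The causes were not tested.

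Against 44 higher and 8 lower genes, activated cells had 176 and 2 on thinned counts, 76 and 19 with at least 3 selection genes, 81 and 19 when chosen after thinning, 21 and 5 at a mean of 50 CPM, 39 and 12 without cells holding an Ikzf2 UMI, and 63 and 14 against cells with 0 selection genes. With 1 library left out there were 43 to 67 higher (67 without control 1) and 8 to 13 lower (13 without knockout 2). Of the 44 genes, 43 or 44 had a positive mean ratio under each of these, but only 24 met the 2-fold rule without cells holding an Ikzf2 UMI, 25 when chosen after thinning and 30 each on thinned counts and with at least 3 selection genes. Depth limits the rarer transcripts, since cells thinned to 2000 UMIs hold few selection genes and the sets of 86 and 87 cells give small sums.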

Other observations

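Some transcripts of tissue repair and metabolism were seen in few activated cells. Penk, which encodes the opioid precursor proenkephalin, was found in 20 of the 761 cells, at 5.08, 75.5, 32.7, 26.9 and 251 CPM in control 1, 2 and knockout 1, 2, 3, against 0.878 to 3.83 CPM in other gated cells. Areg, the epithelial growth factor amphiregulin, was found in 28 cells, at 1.54 to 14.3 CPM. Marcksl1, a MARCKS family gene, was in 155 cells with a log2 ratio of 2.59 ± 0.55 (SD, n = 5), Bcat1, a branched-chain amino acid enzyme, in 35 with 3.58 ± 0.86, and Il17rb, a chain of the IL-25 receptor, in 28 with 1.82 ± 1.03. Il21, the follicular helper cytokine, was at 1.36, 168, 0.780, 44.5 and 24.3 CPM in the same order of libraries, and 1 cell held 65.1% of its UMIs in control 2.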
